A study of Homo sapiens with 6 samples.

Results

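Alkaline phosphatases are enzymes of the cell surface that remove phosphate groups from small molecules and proteins at alkaline pH, and a glycosylphosphatidylinositol (GPI) anchor holds them in the outer leaflet of the plasma membrane. The family has a tissue-nonspecific enzyme, ALPL, of bone, liver and kidney, which breaks down the mineralization inhibitor pyrophosphate. Its other members are tissue-restricted: ALPP of the placenta, the placental-like or germ cell enzyme ALPPL2 and the intestinal ALPI of the enterocyte brush border. ALPP and ALPPL2 are also known as enzymes that some tumors produce outside these tissues. The 4 genes ALPP, ALPPL2, ALPI and ALPL were taken by the gene name in the array files, out of 36337 distinct gene names, and each had 1 probe. They were selected because ALPPL2 and ALPP had some of the largest mean rises after DLEU1 knockdown, ranks 2 and 4 among the 19956 probes kept, so their changes under that comparison are given as a description, without a test.

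The data came from 3 human oral squamous cell carcinoma (OSCC) lines, HSC-3, KON and Ca9-22, each transfected either with a control siRNA (siCtrl) or with an siRNA against the long noncoding RNA DLEU1 (siDLEU1-2) and harvested after 72 h. Total RNA from each transfection was hybridized to a single-color Agilent microarray, which gave 6 arrays, 3 per siRNA and 1 per line and siRNA. Each group therefore has 3 values from 3 different lines, none of which was repeated, and 1 siRNA against DLEU1 was measured, so an effect of its sequence on other transcripts cannot be told apart from an effect of DLEU1. DLEU1 itself fell in every line, with signals of 571 and 30.7 (siCtrl and siDLEU1-2) in HSC-3 cells, 1145 and 87.8 in KON cells, and 741 and 66.0 in Ca9-22 cells. On the log2 scale DLEU1 changed by -3.72 ± 0.34 on average (SD, n = 3; limma adjusted p = 0.0227). Of 19 squamous epithelial markers on the array, 16 exceeded background clearly on all 6 arrays and 3 on some, whereas 6 of 9 fibroblast, 1 of 5 endothelial and 2 of 7 leukocyte markers were above it on no array. The other 3 fibroblast, 4 endothelial and 5 leukocyte markers were above it on at least 1 array, COL1A1 and CD14 on all 6, CDH5 and VWF of endothelium on 5 and the fibroblast marker FAP on 4. The 3 arrays of a group hold bulk RNA, in which a change in the number of expressing cells and a change in RNA per cell cannot be told apart.

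Because the placental-type genes are close relatives, the probes were compared first. Every probe is 60 bases long, and the first 30 are shown with the longest run that the ALPP and ALPPL2 probes share in capitals.
ALPP: aaggTCCCTCCCcagacatctggacactgg
ALPPL2: tcattacctTCCCTCCCtgggcctccattc
ALPI: agcgaacacacacaggtgtcctgccgttgg
ALPL: gctacaaggtggtgggcggtgaacgagaga

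On hg19, the build of the array files, the ALPP probe lies at chr2:233247198-233247257, the ALPPL2 probe at chr2:233275347-233275406 and the ALPI probe at chr2:233323933-233323992. Gaps of 28089 bp and 48526 bp separate these neighbours, so the 3 genes form a cluster. The ALPL probe lies on another chromosome, at chr1:21903084-21903884, and its 60 bases span 801 bp of the genome, so that it crosses an intron. Which exon or untranslated region each probe falls in was not analysed here.

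The ALPP and ALPPL2 probes shared no run longer than 8 bases, and their best ungapped overlap matched at 26 of 55 positions (47.3%). ALPI matched the ALPP probe at 26 of 60 positions (43.3%) and the ALPPL2 probe at 21 of 51 (41.2%). The pairs with ALPL, on the other chromosome, matched at 33.9% to 42.1% of the overlap. Across the other 50598 probes of the array, the longest run shared with another probe was 14 bases for ALPP, 16 for ALPPL2, 13 for ALPI and 14 for ALPL, and no other probe shared 20. Whether a probe also binds the transcript of a related gene was not tested, since transcript sequences were not used here.

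ALPPL2 was measured well above background on all 6 arrays. With siCtrl, the processed signal of its probe, an intensity in arbitrary units, was 305 for HSC-3, 303 for KON and 348 for Ca9-22. With siDLEU1-2, HSC-3 reached 66293, KON 10858 and Ca9-22 26132. Every siDLEU1-2 array was above every siCtrl array, and HSC-3 with siDLEU1-2 was the highest of all. On the scale of log2 signal relative to the 75th percentile of the array, the fold changes within a line were 7.88 for HSC-3, 5.24 for KON and 6.28 for Ca9-22, equal to 236-fold, 37.7-fold and 77.8-fold. Their mean was 6.47 ± 1.33 (SD, n = 3).

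ALPP, the placental enzyme, was also well above background on all 6 arrays. With siCtrl its signal was 296 for HSC-3, 228 for KON and 304 for Ca9-22. With siDLEU1-2 the same lines gave 20473, 4026 and 23577. The groups did not overlap, and KON gave the lowest value under either siRNA. The log2 fold changes were 6.23 for HSC-3, 4.21 for KON and 6.33 for Ca9-22, or 75-fold, 18.5-fold and 80.4-fold, with a mean of 5.59 ± 1.19 (SD, n = 3).

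**Figure D1:**
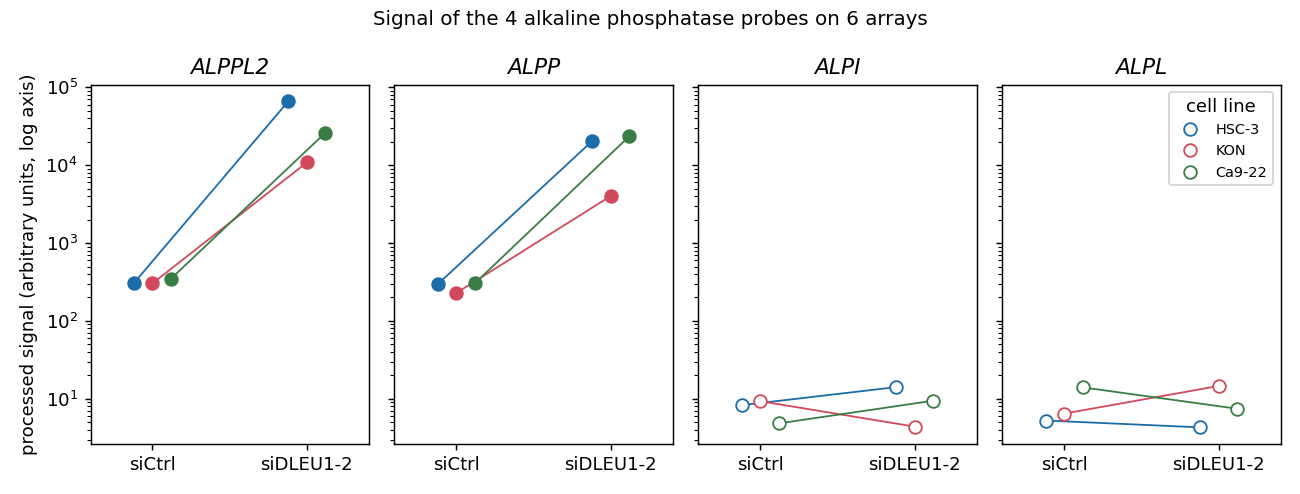
Processed signal (arbitrary units, log axis) of the ALPPL2, ALPP, ALPI and ALPL probes with siCtrl and siDLEU1-2, 1 point per array, joined within a cell line; filled points are well above background and open points are not. ALPPL2 lay between 303 and 348 with siCtrl and between 10858 and 66293 with siDLEU1-2, ALPP lay between 228 and 304 and then between 4026 and 23577, and all ALPI and ALPL points were at or below 14.6.

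ALPI, the intestinal enzyme, was not well above background on any of the 6 arrays. Its signal was 8.28, 9.32 and 4.83 with siCtrl in HSC-3, KON and Ca9-22, and 14.1, 4.39 and 9.45 with siDLEU1-2. The lowest signal that counted as well above background was 16.6 to 24.9, depending on the array, so no fold change is given. On the HSC-3 array with siDLEU1-2, where ALPPL2 read 66293 and ALPP 20473, the ALPI probe read 14.1, below that limit.

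ALPL, the tissue-nonspecific enzyme, was likewise not well above background on any array. Its signal was 5.26, 6.45 and 14.0 with siCtrl and 4.30, 14.6 and 7.45 with siDLEU1-2, in the same order of lines. The values of the siRNA groups overlapped for both genes, and their 1 probe each gives only an upper bound on the level. Of the 4 genes, 2 passed the filter on dim probes and 2 did not.

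The values that chose these genes were their mean fold changes over the 3 lines. Among the 19956 probes kept, ALPPL2 ranked 2 and ALPP ranked 4. SLC7A7, a light chain of an amino acid transporter, ranked 1 at 6.93 on the log2 scale. C11orf86 lay between both genes at 5.80, and CALB1, a calcium-binding protein, came just after ALPP at 5.56. SLC7A7 was well above background on 1 of the 3 siCtrl arrays, C11orf86 on 0 and CALB1 on 2, which leaves their siCtrl levels partly as bounds. Among the 18094 probes well above background on all 6 arrays, ALPPL2 and ALPP ranked 1 and 2. Both were over 2-fold higher in all 3 lines, as were 2.08% of all probes kept, and both had every siDLEU1-2 array above every siCtrl array, as did 5.67%. Nothing is read from these shares, since the genes were chosen on this contrast.

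The fold changes of the pair of genes were also set side by side in each line, as a description. The log2 fold change of ALPPL2 exceeded that of ALPP by 1.65 in HSC-3 and by 1.02 in KON, whereas in Ca9-22 the difference was -0.047. The error model of the scanner software, which covers error within an array only, gave each of these differences an error of 0.29. With 1 array per line and siRNA, the spread of repeated transfections is not known. Over the 3 lines the difference was 0.88 ± 0.86 (SD, n = 3), a mean close to its spread.

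**Figure D2:**
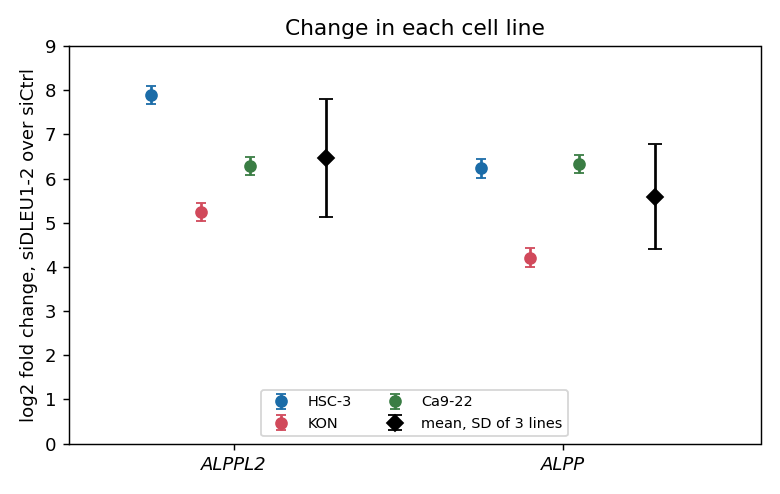
Log2 fold change (siDLEU1-2 over siCtrl) of ALPPL2 and ALPP in each cell line, with bars for the error model of the scanner software, and the mean of the 3 lines with its SD as a black diamond. KON was lowest for both genes (5.24 and 4.21), and HSC-3 exceeded Ca9-22 for ALPPL2 (7.88 against 6.28) but not for ALPP (6.23 against 6.33).

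The spread of the levels over the 3 lines comes from the same arrays that chose the genes and is given as a description only. With siCtrl, the range of the ALPPL2 level over the lines was 0.25 on the log2 scale, and with siDLEU1-2 it was 2.90. For ALPP the range was 0.62 with siCtrl and 2.63 with siDLEU1-2. The median range of all probes kept was 0.96 with siCtrl and 1.05 with siDLEU1-2. The ALPPL2 level with siDLEU1-2 was 8.37 in HSC-3, 6.75 in Ca9-22 and 5.47 in KON, relative to the 75th percentile, and that of ALPP was 6.67, 6.60 and 4.04. HSC-3 and Ca9-22 were neighbours in this order for ALPP, and their signals of 20473 and 23577 each had an error of 10.0% by the error model. DLEU1 depletion was largest in HSC-3, with a log2 fold change of -4.10, against -3.63 in KON and -3.44 in Ca9-22, so its order was not the order of either phosphatase gene. The part of the depth of depletion in the spread between lines was not tested.

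Levels between the lines, averaged over both siRNAs, are another contrast than the one that chose the genes, although it uses the same arrays, and limma was used to test it over all 19956 probes. KON minus HSC-3 was -1.62 ± 0.57 (SE) on the log2 scale for ALPP and -1.57 ± 0.64 for ALPPL2, with adjusted p-values of 0.0857 and 0.115, while 36.2% of all probes were called in this contrast. Ca9-22 differed from HSC-3 by -0.82 for ALPPL2 and by -0.13 for ALPP, with adjusted p-values of 0.348 and 0.875, against 36.6% of probes called. Ca9-22 exceeded KON by 0.75 for ALPPL2 and 1.5 for ALPP, with adjusted p-values of 0.400 and 0.108, against 33.2% called. Thus 0 of 2 probes were called in each of the 3 contrasts. At an unadjusted p under 0.05 the count was 1 of 2 for KON against HSC-3, which was ALPP, and 0 for the others. In this fit the error rests on the disagreement between lines in the siRNA fold change. Those fold changes chose the genes and had an SD of 1.33 for ALPPL2 and 1.19 for ALPP. The lack of calls is therefore not independent of the choice, and no conclusion is drawn from it. The arrays of both siRNAs enter each difference, and most of it came from those with siDLEU1-2 in the contrasts with KON. KON minus HSC-3 was -0.25 with siCtrl and -2.90 with siDLEU1-2 for ALPPL2, and -0.62 and -2.63 for ALPP. These contrasts are therefore not a measure of the lines before knockdown.

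The measured genes around ALPP and ALPPL2 had far smaller differences between the siRNAs. Both genes were chosen for the size of their rise, so smaller changes in other probes follow from that choice. The neighbours are therefore set beside all probes. On chromosome 2, 64 other probes lay within 1 Mb of the cluster and 31 were kept. Their mean log2 fold changes ran from -0.89 to 0.69 with a median of 0.10, and limma called 0 of them, against 3.98% of all probes called higher and 4.52% called lower. At an unadjusted p under 0.05 the count was 5 of 31, against 29.5% of all probes in either direction, and the lowest adjusted p was 0.0608. Within 200 kb, 8 probes were kept, of DIS3L2, an exonuclease, EIF4E2, a cap-binding protein, TIGD1 and LOC100507948. Their mean changes ran from -0.53 to 0.53, and the lowest adjusted p was 0.0890. A further 10 probes in this window were not kept, those of ECEL1P2, ECEL1, PRSS56, CHRND, CHRNG, LOC100507979 and AF289570, 1 of EIF4E2 and 2 without a gene symbol. The nearest of them, ECEL1P2, a pseudogene, lies 3225 bp from a member probe and was well above background on 0 of 6 arrays.

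**Figure D3:**
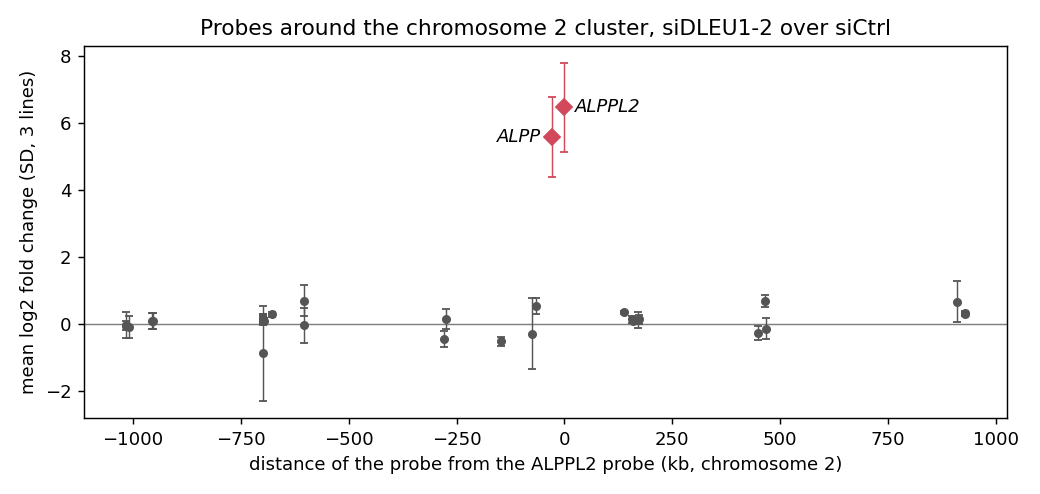
Mean log2 fold change (siDLEU1-2 over siCtrl; bars, SD of 3 lines) of ALPP and ALPPL2 (red diamonds) and of the 31 other kept probes on chromosome 2 within 1 Mb of the cluster (grey), by distance from the ALPPL2 probe in kb. ALPP and ALPPL2, which were chosen for their rise, stood at 5.59 and 6.47, and the grey points between -0.89 and 0.69.

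Around ALPL on chromosome 1, 23 of 52 other probes were kept, with mean log2 fold changes from -1.15 to 2.64 and a median of -0.23. Of these, limma called 2, both lower, against 4.52% of all probes called lower and 3.98% called higher. An unadjusted p under 0.05 was found for 11 of 23, against 29.5% of all probes. The highest values did not pass the test: CDA, a cytidine deaminase, was at 2.64 ± 1.43 (SD, n = 3; limma adjusted p = 0.0577) and PINK1, a mitochondrial kinase, at 1.33 ± 0.67 (adjusted p = 0.0596). The called probes were those of CDC42, a small GTPase that controls the actin cytoskeleton, and of USP48, a ubiquitin protease. The CDC42 probe fell by 1.1 on the log2 scale (SD 0.25, n = 3; limma adjusted p = 0.0321) and lies 515385 bp from the ALPL probe, while a second kept CDC42 probe changed by -0.76 with an adjusted p of 0.0560. USP48 had a called probe at -1.08 (limma adjusted p = 0.0291) and another, which stands for the gene in the lists, at -0.20 (adjusted p = 0.407), so its probes disagree. NBPF3, the other gene within 200 kb with a kept probe, was at -0.32 (adjusted p = 0.268), and the 3 probes of RAP1GAP were not kept. The remaining probes in this window, of XLOC_000087, XLOC_000371, LOC100653178, XLOC_000085 and XLOC_l2_000804, were above background on 0 of 6 arrays.

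The upstream sequences of the 3 clustered genes are shown because ALPP and ALPPL2 moved together while their neighbour ALPI was not well above background on any array. They are the 250 bases before the transcription start in RefSeq (GRCh38.p14, plus strand), which holds all 4 genes and names ALPPL2 as ALPG. Capitals mark TTTAAA.
ALPP, chr2:232378501-232378750: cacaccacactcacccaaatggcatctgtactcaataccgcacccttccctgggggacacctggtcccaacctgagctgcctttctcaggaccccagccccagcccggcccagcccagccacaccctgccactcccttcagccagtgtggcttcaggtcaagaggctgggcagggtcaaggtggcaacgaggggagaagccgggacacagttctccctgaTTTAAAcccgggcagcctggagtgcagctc
ALPPL2, chr2:232406594-232406843: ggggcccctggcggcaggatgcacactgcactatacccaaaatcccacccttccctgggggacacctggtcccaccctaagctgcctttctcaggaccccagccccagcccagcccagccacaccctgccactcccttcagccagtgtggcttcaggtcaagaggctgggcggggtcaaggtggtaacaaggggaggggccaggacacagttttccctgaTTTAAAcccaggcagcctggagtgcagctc
ALPI, chr2:232455903-232456152: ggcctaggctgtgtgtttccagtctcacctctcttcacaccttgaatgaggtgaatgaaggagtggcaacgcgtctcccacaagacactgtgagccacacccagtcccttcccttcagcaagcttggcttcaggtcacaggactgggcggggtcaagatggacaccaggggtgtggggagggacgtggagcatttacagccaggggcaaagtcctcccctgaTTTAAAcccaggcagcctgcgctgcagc

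These stretches were aligned with gaps, so their percentages are not comparable with those of the probes. ALPP and ALPPL2 matched at 217 of 234 aligned bases (92.7%) and shared an unbroken run of 64 bases. ALPI matched ALPP at 168 of 208 aligned bases (80.8%) and ALPPL2 at 169 of 209 (80.9%). Against the 3 ALPL promoters in RefSeq, the 3 genes matched at 67.2% to 77.6% over 44 to 203 aligned bases, with no shared run longer than 10 bases. Counted with -1 as the base before the start, TTTAAA began at -30 in ALPP and ALPPL2 and at -28 in ALPI. It lay within a 15-base run, ccctgatttaaaccc, that all 3 shared and that 3 of 35116 promoters in the table held, those of these genes. A 13-base run, tggcttcaggtca, was likewise held by these 3 promoters alone.

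The letters searched on both strands were chosen with these sequences in view, and each match is a description. TTTAAA was held by 11.3% of all promoters, and it began between -35 and -25 in 1.23%. CAGGTCA, the end of the 13-base run, began at -97 in ALPP and ALPPL2 and at -120 in ALPI, and 3.27% of promoters held it. CCACACCC was held by all 3, with 2 matches in ALPI, and by 2.97% of promoters. GGGCGG was held by ALPPL2 and ALPI but not by ALPP, and by 42.6% of promoters. TATAAA (11% of promoters) and TGAGTCA (4.2%) were in none of the 3.

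Other genes were described in 9 lists, 8 chosen for alkaline phosphatase biology or tissue and 1, with 33 tested genes, for position within 1 Mb of a member probe. Together they hold 141 tested genes other than the 4, 1 probe each. By limma, 4 of the 141 were higher and 6 lower with siDLEU1-2, with a median log2 fold change of 0.08. The median of all 19956 probes was 0.0073, and 3.98% of them were called higher and 4.52% lower. At an unadjusted p under 0.05, 33 of the 141 genes were higher and 17 lower, while the shares of all probes were 14.6% and 14.9%, the background for the unadjusted counts of each list. When any 1 of the HSC-3, KON and Ca9-22 pairs was left out, 0 were called in either direction.

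The enzymes that build and attach the GPI anchor were measured in 27 genes, of which 0 were higher and 2 lower (median -0.20), and at an unadjusted p under 0.05 the counts were 2 and 4. PIGS, a subunit of the transamidase that joins the anchor to the protein, fell by 1.29 ± 0.39 (SD, n = 3; limma adjusted p = 0.0343). Its second probe gave -1.31 (adjusted p = 0.0385). PIGA, which acts in the first step of anchor synthesis, read 471, 854 and 370 with siCtrl and 257, 395 and 151 with siDLEU1-2 in HSC-3, KON and Ca9-22. PIGA was lower with siDLEU1-2 in each line, although the KON value of 395 lay above the Ca9-22 control of 370. It fell by 1.01 ± 0.25 (adjusted p = 0.0361).

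Other proteins with a GPI anchor numbered 35 tested genes, of which 2 were higher and 1 lower, and at an unadjusted p under 0.05 the counts were 14 and 3. The median was 0.42, and 28 of 35 were above 0, as were 50.8% of all probes. FOLR1, the folate receptor alpha, read 121, 95.5 and 2951 with siCtrl in HSC-3, KON and Ca9-22, and 6936, 413 and 51442 with siDLEU1-2. Each line rose, although the KON value with siDLEU1-2 was below the Ca9-22 value with siCtrl. Its log2 fold change was 4.11 ± 1.89 (SD, n = 3; limma adjusted p = 0.0442), with 5.96 in HSC-3, 4.17 in Ca9-22 and 2.18 in KON. RTN4R, the Nogo receptor, rose by 1.04 ± 0.16 (adjusted p = 0.0307). ULBP2, a ligand of the natural killer cell receptor NKG2D, fell by 2.31 ± 0.91 (adjusted p = 0.0365).

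Genes that handle phosphate and pyrophosphate, and other phosphatases, were read next. In the phosphate and pyrophosphate list, 0 of 13 genes were higher and 1 lower (median 0.09), against 2 and 2 at an unadjusted p under 0.05. The gene that fell was ENTPD3, an ectonucleotidase, at -1.25 ± 0.52 (limma adjusted p = 0.0485), which 5 of the 6 arrays measured well above background. Under normexp background correction it was at -0.62 (limma adjusted p = 0.172, in a range of 0.0449 to 1.0 over the alternatives). Of 11 other phosphatases and 4 vitamin B6 enzymes, whose pathway uses a substrate of ALPL, limma called 0, with 2 higher and 1 lower phosphatase and 1 higher and 1 lower B6 gene at an unadjusted p under 0.05. Their medians were 0.01 and 0.03.

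Markers of the tissues that normally make these enzymes were then read. In the placenta list, 41 genes were on the array, 14 were above background on no array and 12 were tested, of which 1 was higher and 1 lower (median 0.21), against 5 and 1 at an unadjusted p under 0.05, with 10 of 12 above 0. PSG8, a pregnancy-specific glycoprotein, rose by 2.21 ± 0.51 (limma adjusted p = 0.0247), but its family has near-identical members, and its other 2 probes were above background on 1 and 2 arrays. Its value was 1.19 with normexp background correction and 1.85 with dim values raised to the lowest value well above background, with limma adjusted p-values of 0.0630 and 0.0639 in a range of 0.0247 to 0.947 over the alternatives. PLAC1, a placental surface protein, fell by 1.51 ± 0.34 (adjusted p = 0.0266). In the enterocyte list, 23 of 27 genes were above background on no array, and the 1 tested gene, the homeobox gene CDX1, was at -0.14 (limma adjusted p = 0.524). In the osteoblast list, 1 of 5 tested genes was higher and 0 lower (median -0.10), against 2 and 1 at an unadjusted p under 0.05. It was COL1A1, the alpha 1 chain of type I collagen, at 1.45 ± 0.57 (adjusted p = 0.0423), which is also in the fibroblast marker list. COL1A2, the other type I collagen gene in both lists, was well above background on 0 arrays. The summed signal of the other 8 fibroblast markers was 691, 68.7 and 49.4 with siCtrl in HSC-3, KON and Ca9-22, and 429, 66.9 and 69.3 with siDLEU1-2, so it was higher with siDLEU1-2 in Ca9-22 only.

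**Figure D4:**
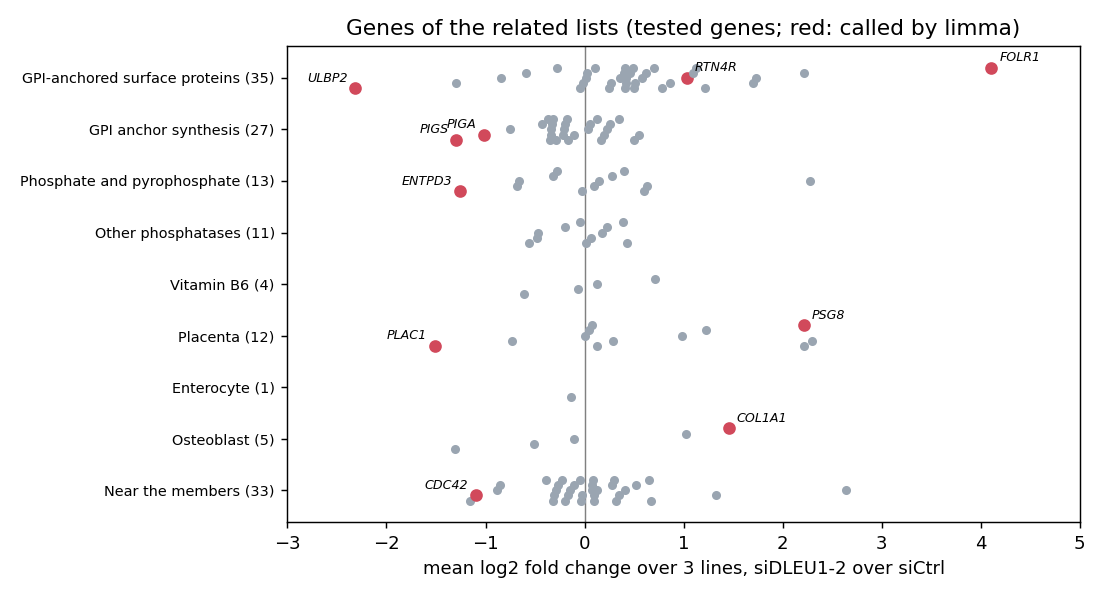
Mean log2 fold change over the 3 lines (siDLEU1-2 over siCtrl) of every tested gene in the 9 lists, with the number tested in brackets; each point is a gene, and red points were called by limma. Of 141 tested genes 4 were called higher (FOLR1, PSG8, COL1A1 and RTN4R) and 6 lower.

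Patterns over the 6 arrays were compared after each probe was centred on its own mean. ALPP differed from ALPPL2 by a root mean square of 0.66 on the log2 scale. Of 12437 other genes, the nearest were SLC7A7 at 0.82, C11orf86 at 1.03, NPPB, the gene of B-type natriuretic peptide, at 1.13, TMEM139 at 1.37 and TMEM130 at 1.38. SLC7A7 read 15.1, 48.6 and 12 with siCtrl and 3926, 1708 and 2032 with siDLEU1-2 in HSC-3, KON and Ca9-22. NPPB read 4.0, 22.5 and 5.11 and then 943, 142 and 139. SLC7A7 and NPPB were each well above background on 1 siCtrl array, that of KON, and C11orf86, TMEM139 and TMEM130 on 0, unlike ALPPL2 and ALPP, which were so on all 3. The distances and order of these genes thus rest in part on siCtrl values near background. The likeness was dominated by the difference between the siRNAs, which also chose ALPPL2, and is a description.

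**Figure D5:**
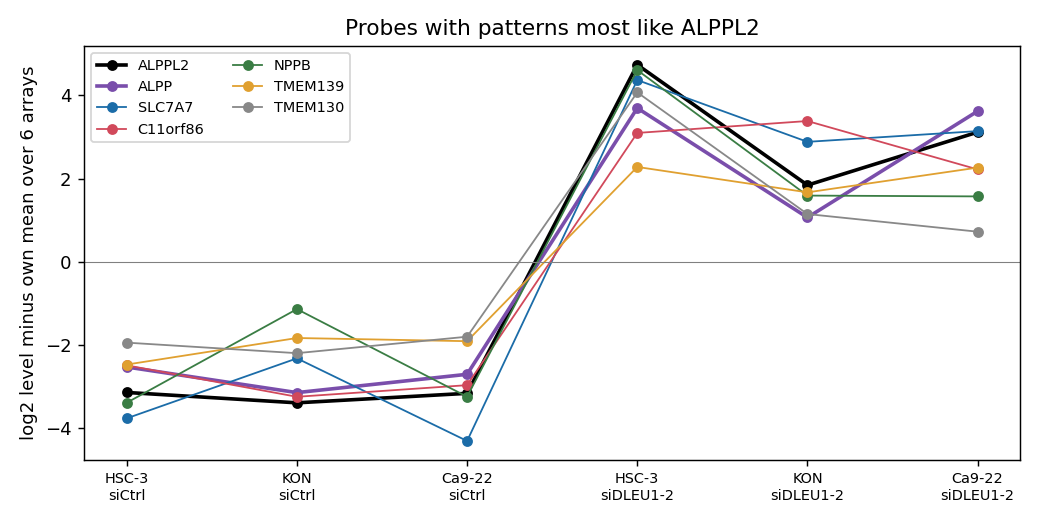
Log2 level of ALPPL2, ALPP and the 5 nearest other genes on each of the 6 arrays, minus the own mean of each probe; lines join the arrays of a probe only to guide the eye. All 7 probes were lower with siCtrl than with siDLEU1-2. The lowest siDLEU1-2 value was in KON for ALPPL2, ALPP, SLC7A7 and TMEM139, and in Ca9-22 for C11orf86, NPPB and TMEM130.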

How the data were processed

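RNA of 3 OSCC lines with siCtrl or siDLEU1-2 (72 h) was labeled from 100 ng and hybridized to 6 arrays on 1 slide. The authors deposited the output of Agilent Feature Extraction (10.7.3.1 in the file header, 10.7 per the submitters' processing notes), in which every spot has an intensity, background-subtracted and detrended but not normalized between arrays. The deposited series table holds the same intensity to within 0.497%.

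The log2 processed signal was centred on the 75th percentile of each array, control and outlier spots were left out and spots of a probe were averaged. Of 50599 probes, 55 had no usable spot on some array, and 19956 were kept as well above background on at least 1 array of each line. No spot was saturated. The lowest signal well above background was 16.6 to 24.9 and the highest 199780 to 236364, and the number of arrays limits the precision. Unrepeated lines serve as the replicates. A p-value for the siRNA thus sets the mean change against the spread of that change between lines, not against the spread of levels.

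limma 3.58.1 (R 4.3.3) was fitted with siRNA and cell line as terms, and probes with a Benjamini-Hochberg adjusted p below 0.05 were called. The line pairs the arrays, whose deviations from the siRNA means correlated at 0.81 to 0.83. With 2 residual degrees of freedom, limma recovered 44% of 100 probes changed by 1.5 on the log2 scale and 94% of 100 changed by 4 in simulated data on 19956 probes. The smallest two-sided p of an exact sign-flip test over 3 lines is 0.25, so none was used.

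The genes, lists and tests were chosen with earlier results of these data known. Named were the 4 genes, DLEU1, up to 4 called genes per list and direction, genes within 200 kb of a member probe and the 5 nearest patterns, while CALB1, CDA and PINK1 were named after their values were seen. A gene of a list was represented by its kept probe of highest mean level. Probe coordinates are on hg19. Promoters are those of RefSeq (GRCh38.p14) and were aligned with free end gaps. A comparison of the proteins was not run, since no protein sequences were used here.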

Additional observations from a re-analysis of the deposited data

How the results depend on the processing

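The mean log2 fold changes moved by less than 1 SD under all alternatives run, from 5.76 to 7.08 for ALPPL2 and from 5.22 to 6.28 for ALPP, the extremes coming from leaving out HSC-3 or KON for ALPPL2 and from normexp background correction or leaving out KON for ALPP. For ALPI and ALPL no fold change was computed, so no alternative gave a value. In the contrasts between lines, 0 of 2 probes were called under each of the 9 alternatives, and the difference of ALPP between Ca9-22 and HSC-3 changed sign to 0.10 with the percentile taken over probes above background on all arrays and to 0.14 with quantile normalization. Of the list genes, 4 of 141 were called higher and 6 lower in the report. The counts were 12 and 9 with normexp background correction, 12 and 6 with only probes well above background on all 6 arrays (127 tested), 4 and 9 with median centring, and 7 and 7 with dim values raised to the lowest value well above background, although PSG8 lost its call with normexp and with raised dim values, and ENTPD3 with normexp and with the percentile over probes above background on all arrays (adjusted p = 0.0507). Without a filter 0 were called higher and 0 lower (39 and 21 of 252 tested at an unadjusted p under 0.05), and without each line in turn the counts ranged from 0 to 0 in both directions, in fits to 2 lines, against 21 to 29 higher and 13 to 15 lower of 147 to 151 tested at an unadjusted p under 0.05. Without the replicate block, which ignores the pairing by cell line, 0 were higher and 0 lower (7 and 3 unadjusted). The causes were not tested. Dim signals limit what can be said of ALPI and ALPL, whose probes give only an upper bound.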
